A study of Homo sapiens with 24 samples.

Results

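The genes described here are 10 immediate early genes, EGR1, EGR2, EGR3, FOS, FOSB, FOSL1, JUN, JUNB, IER2 and IER3. They were taken by symbol from the 25680 genes that each of 3 deposited expression tables lists, and all 10 were found in each table. RNA was measured in 3 established human acute myeloid leukaemia cell lines, in 24 libraries that form 8 groups of 3. MV411 cells received 2.5 µM MI-503 over 3 days together with 3 nM AC220 over 24 h, AC220 alone at that dose and time, MI-503 alone at that dose and time, or the solvent DMSO. MOLM13 and OCI-AML3 cells received 2.5 µM MI-503 or DMSO over 4 days, and these lines had no AC220 group. MI-503 blocks the contact of menin with MLL (KMT2A) proteins, and AC220 (quizartinib) inhibits the receptor tyrosine kinase FLT3. MV411 and MOLM13, with their DMSO controls, carry an MLL fusion and an internal tandem duplication in FLT3, whereas OCI-AML3 carries mutant NPM1, no MLL fusion, FLT3 without the duplication and an activating NRAS mutation. These genotypes are background knowledge of the lines, and line and genotype cannot be told apart.

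Immediate early genes are transcribed within minutes of a growth factor or stress signal, without new protein synthesis. In the textbook pathway, receptor kinases such as FLT3 activate RAS, RAF, MEK and ERK, and ERK acts on ternary complex factors that sit with serum response factor (SRF) on CArG boxes in promoters. EGR1, EGR2 and EGR3 are zinc finger transcription factors that bind GC-rich sites. FOS, FOSB and FOSL1 pair with JUN and JUNB to form AP-1, which binds TGANTCA sites. IER2 is a nuclear protein and IER3 a stress-responsive survival regulator.

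The promoters of EGR1, FOS and JUN are shown because these 3 genes had the largest increases among the members in MOLM13, described below. Sequences are from RefSeq (build GRCh38.p14), from which 7 of the 10 members were used, and run from 250 bases before to 50 bases after the start site, 5′ to 3′ on the gene's strand. They span chr5:138465229-138465528 (plus strand) for EGR1, chr14:75278578-75278877 (plus strand) for FOS and chr1:58783998-58784297 (minus strand) for JUN. Capitals mark matches on either strand to 6 searched motifs, which were the CArG box, TGACGTCA, TGANTCA, GCGNGGGCG (EGR), TTCNNNGAA (STAT) and CCGGAA (ETS).
EGR1: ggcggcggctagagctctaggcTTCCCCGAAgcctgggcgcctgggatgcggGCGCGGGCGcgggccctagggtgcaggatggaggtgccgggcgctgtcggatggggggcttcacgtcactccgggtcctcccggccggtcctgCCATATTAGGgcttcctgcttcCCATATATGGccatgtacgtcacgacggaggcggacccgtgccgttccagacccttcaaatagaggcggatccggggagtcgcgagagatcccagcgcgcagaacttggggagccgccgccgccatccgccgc
FOS: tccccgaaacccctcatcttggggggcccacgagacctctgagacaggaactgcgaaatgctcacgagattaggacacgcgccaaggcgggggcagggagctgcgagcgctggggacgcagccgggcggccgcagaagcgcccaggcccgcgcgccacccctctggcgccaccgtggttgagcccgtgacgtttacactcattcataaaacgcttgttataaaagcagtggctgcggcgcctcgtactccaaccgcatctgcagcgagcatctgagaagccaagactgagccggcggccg
JUN: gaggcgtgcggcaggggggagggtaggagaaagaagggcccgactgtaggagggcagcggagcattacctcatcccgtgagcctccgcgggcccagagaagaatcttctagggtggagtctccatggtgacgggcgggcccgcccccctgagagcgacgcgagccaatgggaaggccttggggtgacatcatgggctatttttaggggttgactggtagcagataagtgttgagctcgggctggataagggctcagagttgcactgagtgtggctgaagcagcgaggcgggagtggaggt
The EGR1 window held 2 CArG boxes, at -105 to -96 and -83 to -74 from the start site, and 1 match each to the EGR and STAT letters, with no overlap between motifs. A CArG box was found in 1.29% of 35116 promoters of the same length, the EGR letters in 9.43% and the STAT letters in 7.66%. The FOS, JUN and JUNB windows held none of the 6 motifs, and sites outside the windows, such as further upstream, were not searched. One of 3 EGR2 starts had a CArG box at -71 to -62, and the FOSB and IER2 windows each had 1 CCGGAA, which 17.2% of promoters have. TGACGTCA (1.85% of promoters) and TGANTCA (7.71%) had no match in the members' windows. These are letter matches only, and binding was not measured.

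Depth, in units of 1000000 reads assigned to genes, was 23.2 to 26.6 in MV411 libraries, 23.3 to 27.2 in MOLM13 libraries and 44.4 to 73.0 in OCI-AML3 libraries. Values below are normalised read counts, brought to one kind of scale in each line by median-of-ratios factors, so a difference is relative to the median gene. In MV411 this is the deposited scale. On the deposited scale the median of all genes in MI-503 against DMSO was -0.54 (log2) in MOLM13 and -0.16 in OCI-AML3. Calls or directions of members that differ on that scale are given below. Markers of the myeloid leukaemia lines were present in all groups (all 7 detected, summed level 1290 to 8940 RPM, that is reads per 1000000 gene reads). Those of other cell types were low, with sums of 2.00 to 97.6 for T and NK cells, 0.676 to 54.5 for B cells, 0.155 to 40.3 for erythroid cells and megakaryocytes and 5.35 to 28.3 for epithelial cells and fibroblasts. KLRD1 had no read in any group, and MS4A1 none in MV411 and MOLM13. As these are bulk samples, fewer cells expressing a gene and less RNA per cell cannot be told apart.

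IER3 was listed at 0 in 23 libraries and had 1 read in 1 OCI-AML3 library with DMSO, so it entered no test. Of 69 protein-coding genes within 1000000 bases of it, 18 had no read in any of the 24 libraries (26.1%), against 7.36% of 17765 protein-coding genes. ABCF1, a translation factor of most cells, is among those 18, and MRPS18B, a protein of the mitochondrial ribosome, had 5 reads in the 24 libraries. IER3 is therefore given as listed at 0 and not as unexpressed.

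Among the DMSO libraries, OCI-AML3 held the most RPM of 8 of the 9 other members, followed by MV411 and then MOLM13. EGR1 stood at 62.3 ± 4.64 RPM in OCI-AML3, 10.7 ± 1.13 in MV411 and 2.29 ± 0.123 in MOLM13 (SD, n = 3 each), and the 3 ranges did not overlap. FOS stood at 133 ± 19.0, 23.4 ± 1.68 and 6.28 ± 0.382 RPM in the same order of lines. JUN stood at 33.9 ± 1.96, 13.9 ± 1.07 and 1.68 ± 0.123 RPM. FOSL1 was the exception, at 13.2 ± 0.532 RPM in OCI-AML3, 14.1 ± 0.602 in MV411 and 13.2 ± 0.839 in MOLM13, with overlapping ranges. IER2 and EGR2 also overlapped between MV411 and MOLM13. The levels of different lines come from separate tables, each library set against its own gene reads, and are a description with no test. Per length, in RPKM (RPM divided by gene length in kilobases) in MV411 with DMSO, the order was JUNB (21.8 ± 2.43), IER2 (12.1 ± 0.445), FOS (7.95 ± 0.571), FOSL1 (7.68 ± 0.327), JUN (3.94 ± 0.301), EGR1 (3.42 ± 0.358), FOSB (1.11 ± 0.0532), EGR3 (0.455 ± 0.223) and EGR2 (0.0984 ± 0.0274). FOS and FOSL1 differed by less than their SD, and EGR1 and JUN by less than the sum of theirs.

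MI-503 lowered EGR1, FOSB and FOSL1 in MV411 and, by less, JUN and FOS. A gene was tested in a line where it reached 10 in at least 3 libraries. EGR1, FOS, FOSB, FOSL1, JUN, JUNB and IER2 did so in all 24 libraries, and counts of members in MV411 and MOLM13 below are over these 7. In MV411 EGR3 passed the filter through its 3 DMSO libraries alone, and EGR2 through its 3 combination libraries and 1 DMSO library. Contrasts of EGR3 with DMSO and of EGR2 with the combination had a difference built in, so they are given as values with no test. Of the 7 members 5 fell with MI-503 and 2 did not pass (JUNB, IER2), against 60.6% of all 14421 tested genes called, 29.8% higher and 30.8% lower.

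EGR1 had 34.1, 33.1 and 49.7 normalised reads in the 3 MI-503 libraries, against 296, 239.9 and 282.3 in the 3 DMSO libraries. The groups lay far apart, with a log2 fold change of -2.79 ± 0.20 (SE), 6.94-fold lower, and an adjusted p of 2.45e-11 (limma with Benjamini-Hochberg adjustment, as for all adjusted p here). EGR3, a lowly expressed relative, had 4.01, 2.92 and 1.95 in MI-503 libraries, against 79.9, 34.1 and 40.1 in DMSO libraries. The log2 fold change was -3.66 ± 0.534, on 9 reads in all MI-503 libraries and 159 in the DMSO libraries. EGR2 had 4.01, 0.974 and 7.79 with MI-503, against 5.71, 10.04 and 7.82 with DMSO, and the groups overlapped (-0.97 ± 0.492, adjusted p = 0.0934). Its value was -0.39 without the second MI-503 library, and -1.46 without the third, where it passed (adjusted p = 0.0206).

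FOSB had 32.1, 41.9 and 55.5 normalised reads with MI-503, against 160.8, 159.6 and 150.5 with DMSO. All MI-503 libraries were below all DMSO libraries (-1.87 ± 0.24, adjusted p = 4e-07). FOSL1, the AP-1 member most often tied to sustained ERK activity, had 114.3, 124.7 and 144.1 with MI-503, against 374, 344.3 and 360.5 with DMSO. It fell 2.81-fold (-1.49 ± 0.136, adjusted p = 1.6e-09) with no overlap. JUN had 258.6, 229.9 and 275.5 with MI-503, against 370.2, 321.2 and 373.2 with DMSO, and again the groups were apart (-0.48 ± 0.0949, adjusted p = 1.4e-04). FOS had 423, 436.5 and 561.8 with MI-503, against 630.9, 593.2 and 557.9 with DMSO. The third MI-503 library reached into the DMSO range, and the call (-0.34 ± 0.107, adjusted p = 0.00969) was lost without the first MI-503 library (adjusted p = 0.068) and without the variance trend (adjusted p = 0.0639). JUNB had 958.4, 796 and 898.7 with MI-503, against 1003, 1115 and 910.5 with DMSO. IER2 had 991.5, 922.6 and 961 with MI-503, against 963.1, 960.5 and 921.3 with DMSO. These were the highest members, and neither passed the test (JUNB adjusted p = 0.123, IER2 0.862), with a 95% interval for IER2 of -0.12 to 0.15.

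The 12 monocyte markers moved in the same libraries, with a summed level of 7620 to 8030 RPM with MI-503, against 1770 to 1820 with DMSO, and all 12 were detected. Their part in the results was not tested.

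**Figure D1:**
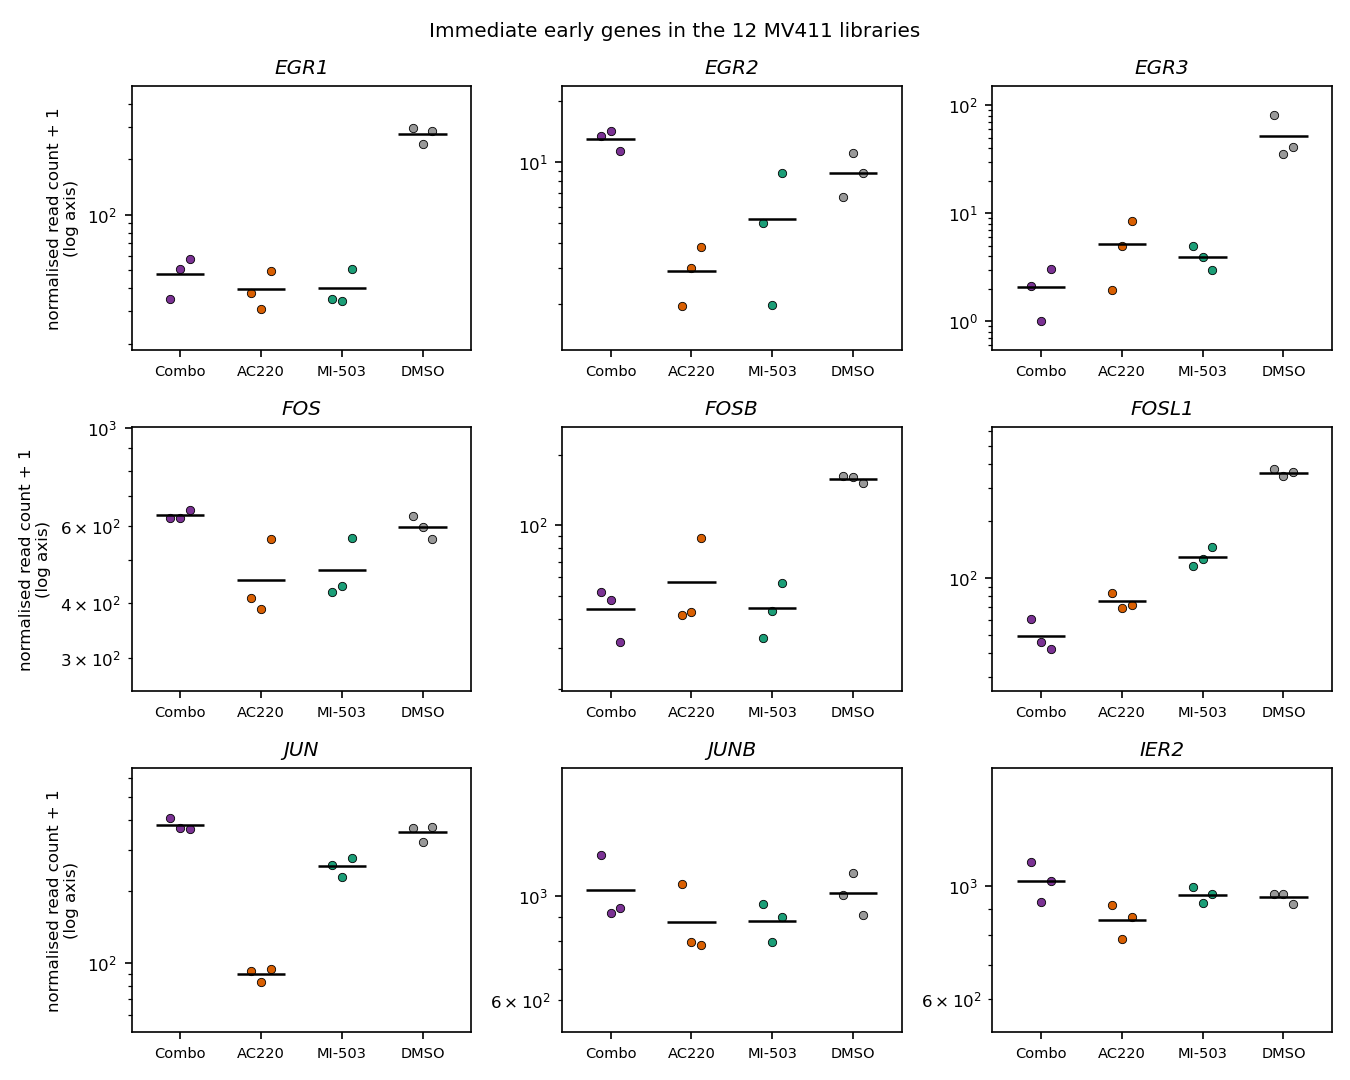
Normalised read count plus 1 (log axis) of each tested member in the 12 MV411 libraries, in groups from left to right of the combination (Combo), AC220, MI-503 and DMSO. Points are libraries and lines are group means of 3. EGR1 lies at 29.8 to 56.4 in all drug groups, against 239.9 to 296 with DMSO, while JUN with the combination (366.3 to 407.1) lies beside DMSO (321.2 to 373.2).

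AC220 alone lowered JUN, FOSL1, EGR1 and FOSB several-fold below DMSO and FOS by less. Of the 7 members 6 fell (74.9% of all genes called, 37.7% higher and 37.3% lower) and JUNB did not pass (-0.21 ± 0.105, adjusted p = 0.0752). JUNB passed without the third DMSO library (-0.28), the first AC220 library (-0.35) or the first combination library (adjusted p = 0.0403, 0.00389 and 0.0303). JUN had 91.2, 81.6 and 92.9 normalised reads with AC220, against 370.2, 321.2 and 373.2 with DMSO. This is 3.97-fold lower (-1.99 ± 0.0949, adjusted p = 3.71e-15), with a wide gap between the groups. The JUN range with AC220 also lay below that with MI-503 (229.9 to 275.5), a contrast that was not tested. FOSL1 had 82.5, 68.6 and 71.3 with AC220, against 374, 344.3 and 360.5 with DMSO (-2.27 ± 0.136, adjusted p = 2.89e-13).

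EGR1 had 36.5, 29.8 and 48.8 with AC220, a range that overlaps that with MI-503, and stood 7.06-fold below DMSO (-2.82 ± 0.20, adjusted p = 6.64e-12). EGR3 had 0.960, 3.98 and 7.51 with AC220 (-3.49 ± 0.534 against DMSO, with no test). EGR2 had 0.960, 1.99 and 2.82 with AC220, against 5.71, 10.04 and 7.82 with DMSO. Its groups lay apart, on 6 reads in all with AC220 and 24 with DMSO (-1.62 ± 0.492, adjusted p = 0.00496). FOSB had 40.3, 41.8 and 87.3 with AC220, where the third library stood above the others and still below each DMSO library (-1.55 ± 0.24, adjusted p = 3.38e-06). FOS had 408.8, 387 and 557.5 with AC220, just under the lowest DMSO value of 557.9 (-0.41 ± 0.107, adjusted p = 0.00139). IER2 had 915.5, 785.9 and 868.1 with AC220 (-0.15 ± 0.0658, adjusted p = 0.0445), a call that DESeq2 (adjusted p = 0.0608) and 7 of 12 fits with 1 library left out did not make. The monocyte marker sum was 3260 to 3500 RPM with AC220, and its part was not tested.

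With both drugs together, EGR1, FOSB and FOSL1 stayed below DMSO, while FOS and JUN did not differ detectably from DMSO. Of the 7 members 3 fell and 4 did not pass, against 79.4% of all genes called, 39.3% higher and 40.1% lower. JUN had 407.1, 369.3 and 366.3 normalised reads with the combination, against 370.2, 321.2 and 373.2 with DMSO. The ranges overlapped (0.10 ± 0.0949, adjusted p = 0.321), with a 95% interval of the difference of -0.09 to 0.30. FOS had 623.7, 624.6 and 651.5 with the combination, against 630.9, 593.2 and 557.9 with DMSO (0.09 ± 0.107, adjusted p = 0.430, interval -0.13 to 0.32).

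EGR1 had 33.8, 49.8 and 56.4 with the combination, 5.84-fold below DMSO (-2.55 ± 0.20, adjusted p = 3.07e-11). EGR3 had 1.13, 0 and 2.05 with the combination. That is 3 reads in 3 libraries, against 159 with DMSO, a ratio of 49.1-fold lower, with no test because of the filter. FOSB had 50.8, 46.8 and 30.8 with the combination (-1.88 ± 0.24, adjusted p = 1.52e-07). FOSL1 had 59.8, 44.8 and 41.0 with the combination and fell 7.37-fold (-2.88 ± 0.136, adjusted p = 1.84e-15). EGR2 had 12.4, 13.2 and 10.3 with the combination, all above the DMSO libraries on few reads (0.57 ± 0.492, with no test). JUNB had 1216, 915.6 and 941.8 and IER2 had 1113, 929.8 and 1019 with the combination, and neither passed the test. The monocyte marker sum was 8590 to 8760 RPM with the combination, and its part was not tested.

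Adding AC220 to MI-503 raised FOS and JUN and lowered FOSL1 (3 of the 7 members called, against 68.5% of all genes, 34.9% higher and 33.6% lower). JUN stood above MI-503 alone (0.58 ± 0.0949, adjusted p = 9.26e-06) and so did FOS (0.43 ± 0.107, adjusted p = 0.00115), both with all libraries apart. FOSL1 stood 2.62-fold below MI-503 alone (-1.39 ± 0.136, adjusted p = 3.09e-09). Adding MI-503 to AC220 raised JUN 4.27-fold (2.09 ± 0.0949, adjusted p = 8.57e-15), FOS (0.51 ± 0.107, adjusted p = 3.3e-04) and IER2 (0.25 ± 0.0658, adjusted p = 0.00240). It lowered FOSL1 further (-0.62 ± 0.136, adjusted p = 4.91e-04). These are 4 of the 7 members, and for this comparison 55.5% of all genes were called, 27.4% higher and 28.1% lower. EGR1 did not pass in either (0.25 ± 0.20 and 0.27 ± 0.20), nor did FOSB. Without the first combination library EGR1 passed in both (0.46 and 0.49, adjusted p = 0.0434 and 0.0424).

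The interaction asks whether the combination differs from the sum of the single-drug effects on the log2 scale. All 7 members passed above that sum, against 42.5% of all genes called, 20.9% higher and 21.6% lower. For EGR1 the combination measured -2.55, against a sum of -5.62, an interaction of 3.07 ± 0.282 (adjusted p = 5.93e-09). For JUN the combination measured 0.10, against a sum of -2.47, an interaction of 2.57 ± 0.134 (adjusted p = 4.07e-13). FOSL1 with the combination measured -2.88, against a sum of -3.76 (0.88 ± 0.192, adjusted p = 7.22e-04). The interaction was 0.84 ± 0.152 for FOS (adjusted p = 8.97e-05) and 1.54 ± 0.339 for FOSB (adjusted p = 7.48e-04). EGR2 (3.16) and EGR3 (2.43) are given with no test. For EGR3 the sum (-7.14) lay below what a count of 0 gives with a pseudocount of 1, so a value above the sum was fixed beforehand. The calls for JUNB (0.41 ± 0.149, adjusted p = 0.0278) and IER2 (0.24 ± 0.0931, adjusted p = 0.0440) were lost with equal library totals (adjusted p = 0.0663 and 0.115) and in 5 and 8 of the 12 fits that left out 1 library. The comparisons with DMSO share the same 3 control libraries, which also enter the interaction.

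**Figure D2:**
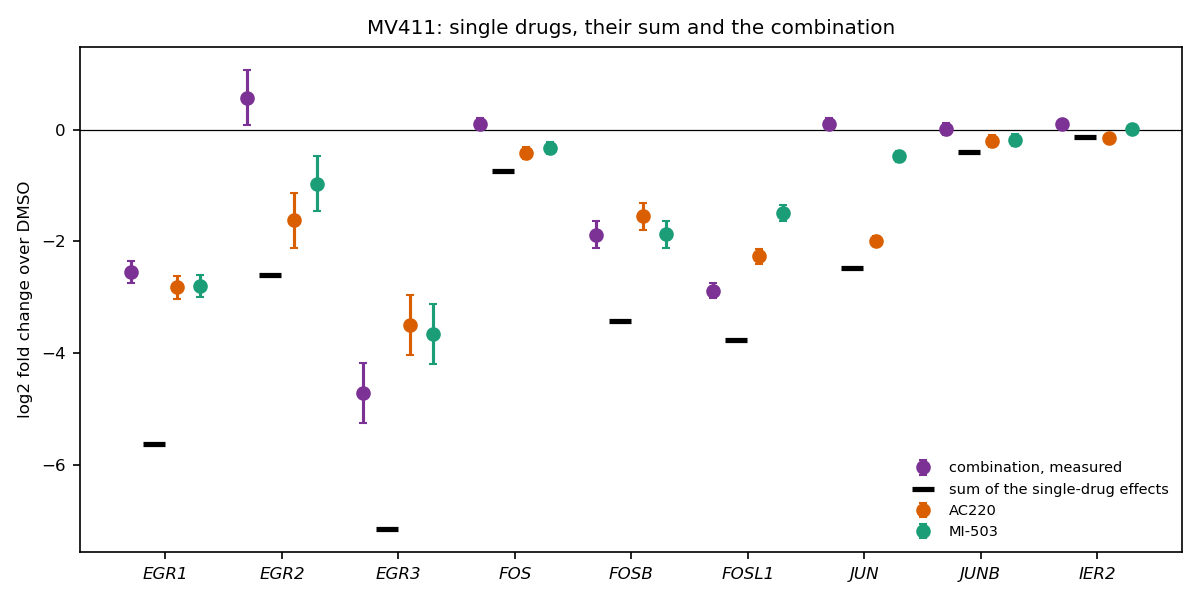
Log2 fold change over DMSO in MV411 of each tested member, from left to right for the combination, the sum of the single-drug effects (black dash, no error drawn), AC220 and MI-503, with bars for the SE (n = 3 libraries a group). The combination lies above the dash by 3.07 for EGR1 and 2.57 for JUN. For EGR3 it could not lie below the dash, and EGR2 entered through the combination libraries.

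In MOLM13, MI-503 raised EGR1, FOS and JUN more than 4-fold, raised IER2 by less, and lowered FOSL1. Of the 7 members 4 rose and 1 fell, against 59.9% of all 13391 genes called, 29.9% in each direction. FOSB and JUNB did not pass, and EGR2 was under the filter. EGR1 had 410.4, 558.5 and 154.8 normalised reads in MI-503 libraries, against 55.2, 58.3 and 62.0 in DMSO libraries. The third MI-503 library was well under the others and still above every DMSO library (2.47 ± 0.293, adjusted p = 1.67e-06). Without any 1 library the EGR1 value ranged from 2.09 to 3.01. FOS had 710.6, 907.7 and 541.2 with MI-503, against 171.3, 156.2 and 154.4 with DMSO. The third library was again lowest, and the groups were far apart (2.13 ± 0.127, 4.37-fold, adjusted p = 2.89e-10). JUN had 201.1, 184.0 and 187.3 with MI-503, against 42.1, 46.5 and 40.6 with DMSO. It rose 4.36-fold (2.12 ± 0.122, adjusted p = 1.77e-10) with close replicates.

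EGR3 lay the other way, with 6.07, 3.31 and 5.92 with MI-503, against 20.6, 19.8 and 16.3 with DMSO. The log2 fold change was -1.73 ± 0.329, on 15 reads with MI-503 and 58 with DMSO, and has no test, since EGR3 had again passed the filter through the DMSO libraries alone. EGR2 had 6.07, 5.51 and 2.96 with MI-503, against 6.55, 1.98 and 4.06 with DMSO. FOSL1 had 296.1, 276.5 and 260.3 with MI-503, against 311.7, 354 and 343.3 with DMSO, a small and separated decrease (-0.28 ± 0.0773, adjusted p = 0.00559). FOSB had 24.3, 27.5 and 32.5 with MI-503, against 25.3, 37.6 and 36.6 with DMSO, and overlapped (adjusted p = 0.405). JUNB had 522.6, 466 and 421.9 with MI-503, against 433.4, 443 and 452 with DMSO, and also overlapped (0.08 ± 0.0718, adjusted p = 0.346). IER2 had 1245, 1398 and 1052 with MI-503, against 790.9, 926.6 and 887.7 with DMSO, with no overlap (0.50 ± 0.0787, adjusted p = 3.99e-05).

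On the deposited scale of MOLM13, where 83.4% of all genes were called, 6.74% higher and 76.7% lower, 3 of the 7 members rose and 3 fell. EGR1 (1.94), FOS (1.60) and JUN (1.60) stayed higher, whereas IER2 stood at -0.03. FOSL1 (-0.81), FOSB (-0.73) and JUNB (-0.45) were called lower. The monocyte marker sum in MOLM13 was 855 to 1030 RPM with MI-503, against 275 to 285 with DMSO, and its part was not tested.

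**Figure D3:**
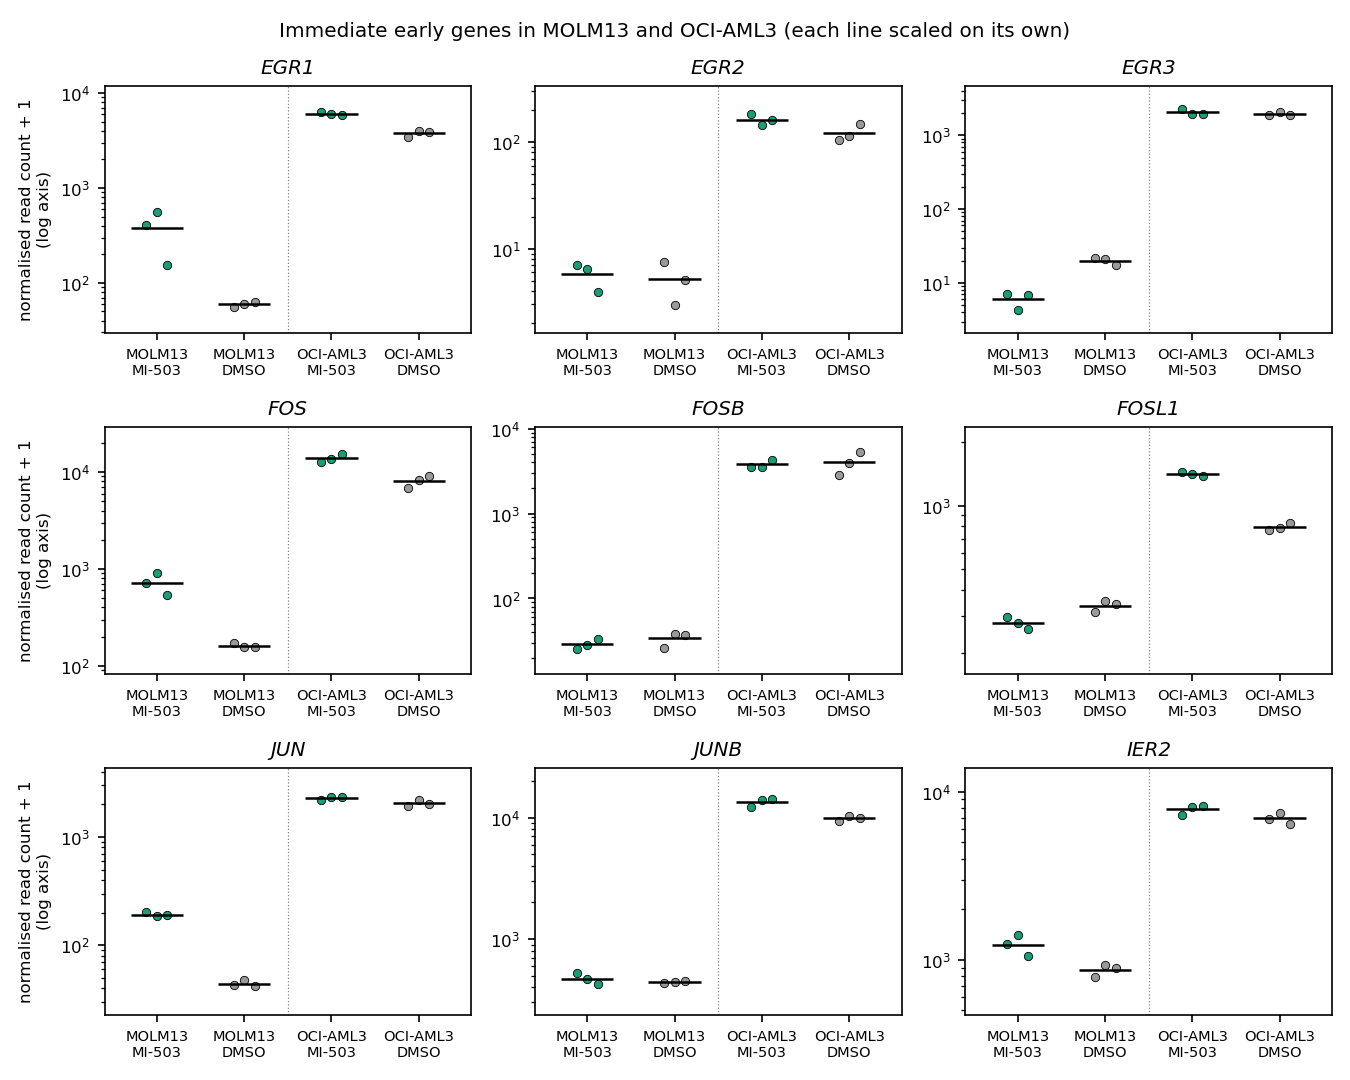
Normalised read count plus 1 (log axis) of 9 members in MOLM13 (left of the dotted line) and OCI-AML3 (right), MI-503 left of DMSO in each. Points are libraries, lines are group means of 3, and each line is scaled on its own. In MOLM13, EGR1 lies at 154.8 to 558.5 with MI-503, against 55.2 to 62.0 with DMSO, and in OCI-AML3 at 5948 to 6265, against 3435 to 3961.

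In OCI-AML3 MI-503 gave smaller increases in more members. Here EGR2 and EGR3 also reached 10 in all 6 libraries, and of 9 tested members 7 rose and EGR3 and FOSB did not pass, against 65.6% of all 15682 genes called, 32.9% higher and 32.8% lower. FOSL1 had 1443, 1417 and 1382 normalised reads with MI-503, against 769.3, 785.8 and 829.7 with DMSO. It rose 1.78-fold (0.83 ± 0.045, adjusted p = 1.14e-08), the opposite direction to its change in the other 2 lines. FOS had 12740, 13570 and 15450 with MI-503, against 6766, 8331 and 9002 with DMSO (0.80 ± 0.0893, adjusted p = 6.79e-06). EGR1 had 6265, 5987 and 5948 with MI-503, against 3435, 3961 and 3880 with DMSO (0.69 ± 0.048, adjusted p = 9.85e-08). JUNB had 12300, 14000 and 14330 with MI-503, against 9349, 10230 and 9924 with DMSO (0.46 ± 0.0515, adjusted p = 6.86e-06). These 4 had no overlap between the groups.

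JUN had 2189, 2327 and 2358 with MI-503, against 1949, 2183 and 2007 with DMSO, a narrow gap (0.16 ± 0.0471, adjusted p = 0.00853). IER2 had 7295, 8152 and 8191 with MI-503, against 6861, 7447 and 6454 with DMSO (0.19 ± 0.0534, adjusted p = 0.00817). EGR2 had 181.3, 143.8 and 159.9 with MI-503, against 103.2, 112.7 and 145.5 with DMSO (0.43 ± 0.135, adjusted p = 0.0139), a call lost without the first (adjusted p = 0.0669) or the second (0.0524) DMSO library. IER2 and EGR2 overlapped between the groups. EGR3 had 2266, 1941 and 1957 with MI-503, against 1901, 2038 and 1902 with DMSO (0.07 ± 0.0568, adjusted p = 0.267). FOSB had 3505, 3552 and 4311 with MI-503, against 2838, 3961 and 5329 with DMSO, where the DMSO libraries spread widest (-0.05 ± 0.165, adjusted p = 0.793). With the values of OCI-AML3 as deposited, 0 members passed in limma, 3 were higher at an unadjusted p under 0.05, and 10.7% of all genes were called, 3.85% higher and 6.82% lower. There EGR1 stood at 0.53 (adjusted p = 0.235) and FOSL1 at 0.67 (adjusted p = 0.0891). On recovered reads edgeR and DESeq2, with factors of their own, each called 7 members higher. The share of all genes called in those 2 fits is not given here, and on the median-ratio scale 32.9% were higher. The monocyte marker sum was 1490 to 1510 RPM with MI-503, against 1740 to 1770 with DMSO, and its part was not tested.

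The direction of EGR and FOS genes under MI-503 in MV411 against MOLM13 is what the set was proposed on, so the contrast of those lines describes it, and it is no independent evidence. Exposure was 3 days in MV411 and 4 days in the others, so line and time cannot be told apart. The MI-503 effect in MV411 minus that in MOLM13 was below 0 for all 7 members (57.0% of all genes called, 26.3% higher and 30.6% lower). It was -5.27 ± 0.38 for EGR1 (adjusted p = 3.7e-11), -2.60 ± 0.145 for JUN (adjusted p = 3.07e-13) and -2.46 ± 0.175 for FOS (adjusted p = 2.77e-11). These 3 fell in MV411 and rose in MOLM13, also on the deposited scale. FOSL1 fell in both lines, with a difference of -1.22 ± 0.128. EGR3 had a difference of -1.93 ± 0.504, with no test because of the filter. FOSB fell in MV411 and did not pass in MOLM13, with a difference of -1.65 ± 0.281. For IER2 the difference was -0.48 ± 0.102 and for JUNB -0.27 ± 0.11 (adjusted p = 0.0400). As deposited, where the median gene stood at 0.52, they were 0.05 and 0.26, so the direction of these 2 depends on the scaling. The JUNB call was also lost in 7 of the 12 fits that left out 1 library.

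MV411 minus OCI-AML3 was below 0 for all 7 members (63.1% of all genes called, 31.3% higher and 31.8% lower). It ranged from -3.49 ± 0.154 for EGR1 to -0.17 ± 0.0719 for IER2 (adjusted p = 0.0429), whose call was lost in 8 of the 12 fits that left out 1 library. EGR3 had a difference of -3.73 ± 0.307, with no test. The EGR2 call (-1.40 ± 0.513, adjusted p = 0.0227) was lost without the second DMSO or second MI-503 library of MV411 or the first DMSO library of OCI-AML3 (adjusted p = 0.056, 0.0566 and 0.0526). As deposited, 4 of the 7 passed, and JUN, JUNB and IER2 did not. On that scale 19.6% of all genes were called, 12.9% higher and 6.66% lower. MOLM13 minus OCI-AML3, both over 4 days, was above 0 for 4 of the 7 members and below 0 for 2 (62.9% of all genes called, 32.4% higher and 30.5% lower). It was higher for JUN (1.96 ± 0.0975, adjusted p = 1.18e-11), EGR1 (1.78 ± 0.387, adjusted p = 6.61e-04), FOS (1.33 ± 0.185, adjusted p = 6.96e-06) and IER2 (0.31 ± 0.115, adjusted p = 0.0258). It was lower for FOSL1 (-1.11 ± 0.0891) and JUNB (-0.38 ± 0.0906), and EGR3 had a difference of -1.81 ± 0.219, with no test. FOSB did not pass (-0.17 ± 0.254, adjusted p = 0.589, interval -0.70 to 0.37). IER2 stood at -0.06 on the deposited scale, and its call was lost in 4 of the 12 fits that left out 1 library. The 3 line differences share libraries pairwise.

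**Figure D4:**
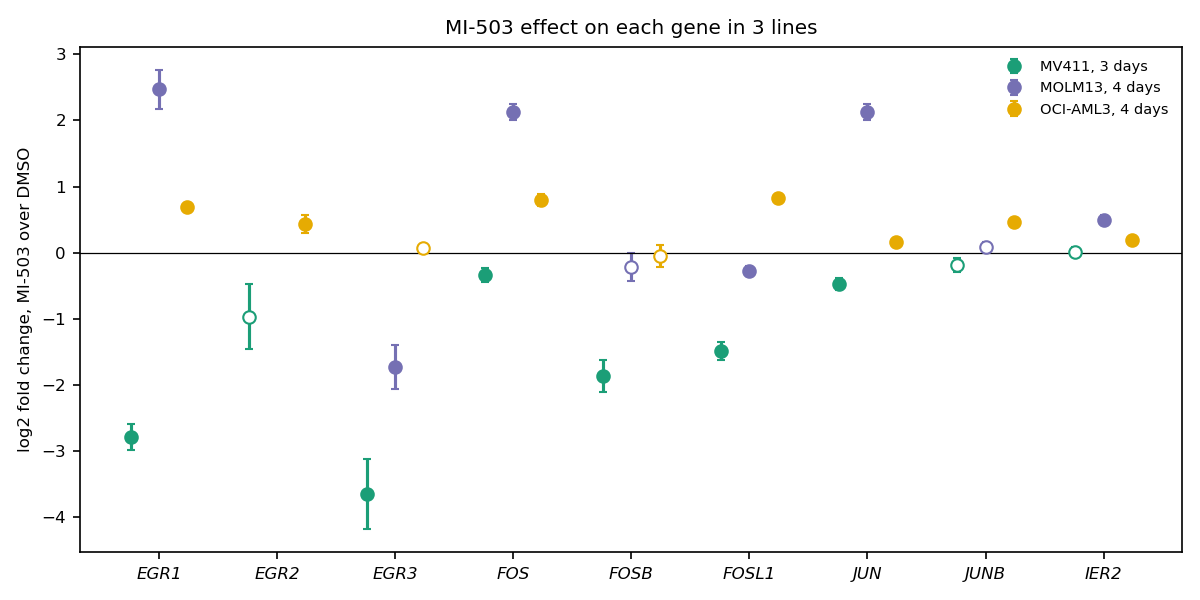
Log2 fold change of MI-503 over DMSO for each tested member in MV411 (3 days), MOLM13 (4 days) and OCI-AML3 (4 days), on the median-ratio scale. Bars are SE (n = 3 libraries a group), filled points passed the test and open points did not. EGR1, FOS and JUN lie below 0 in MV411 (-2.79, -0.34 and -0.48) and above 2 in MOLM13, while EGR3, which passed the filter through DMSO libraries alone, lies below 0 in both.

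In MV411 with MI-503, 20 of 29 other immediate early genes fell and 3 rose, with a median of -0.55. Of all genes 30.8% were lower and 29.8% higher. The most changed were KLF2 (-2.81 ± 0.494), ATF3 (-2.62 ± 0.182), PHLDA1 (-2.10 ± 0.173) and MAFF (-1.68). ATF3, a stress-induced bZIP factor, averaged 92.0 ± 10.6 normalised reads with MI-503 and 577.6 ± 131.9 with DMSO. Of 10 ERK feedback genes and ETS outputs, which ERK signalling is known to induce, 9 fell, with a median of -1.39. They were led by DUSP6 (-2.37 ± 0.137), an ERK phosphatase, with ETV4 (-2.08), SPRY2 (-2.08) and DUSP5 (-1.73). With AC220 the same list had 9 of 10 lower and a median of -3.39, with DUSP6 at -5.26, ETV4 at -5.09, DUSP5 at -4.03 and ETV5 at -3.96. DUSP6 averaged 34.4 ± 7.65 normalised reads with the combination, 31.5 ± 3.21 with AC220, 239.8 ± 24.8 with MI-503 and 1240 ± 92.8 with DMSO. Among other immediate early genes 17 of 29 fell and 5 rose with AC220, where 37.3% of all genes were lower and 37.7% higher. With the combination 13 of the 29 fell and 8 rose, and 9 of 10 ERK outputs fell. There 40.1% of all genes were lower and 39.3% higher, so the 13 falls lie near the share of all genes.

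NAB1 and NAB2, corepressors that bind EGR proteins, fell in all 3 drug groups of MV411. NAB2 averaged 481.9 ± 44.8 normalised reads with the combination, 378.2 ± 37.8 with AC220, 541.5 ± 16.4 with MI-503 and 974.7 ± 12.2 with DMSO. Relatives of the members outside the set split, with 4 of 9 lower and 2 higher for MI-503, among them BATF3 (-2.16), BATF2 (1.04), BATF (0.92) and JUND (-0.88). Genes of the route from receptor to promoter were called in both directions with MI-503, where 60.6% of all genes were called, 29.8% higher and 30.8% lower. Among 18 ERK and JNK cascade kinases 8 fell and 3 rose for MI-503 in MV411 with a median of -0.09, the largest change being NRAS (-0.64). Among 11 SRF, CREB and ETS factors 5 fell and 3 rose with a median of -0.10, led by MKL2 (0.91) and ETS1 (-0.88). SRF itself fell by 0.15.

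In MOLM13 with MI-503, 15 of 29 other immediate early genes rose and 8 fell, with a median of 0.26. SGK1 (1.62 ± 0.111), IER5L (1.06) and PHLDA1 (0.97 ± 0.152) rose most, and ATF3 (-0.83 ± 0.0855) fell most, as it also fell in MV411. As deposited, 4 of the 29 rose and 17 fell. Of 11 ERK feedback genes and ETS outputs 4 rose and 2 fell, with a median of 0.07, led by PHLDA2 (-0.95), SPRY2 (0.35) and DUSP6 (0.35 ± 0.0455). DUSP6 averaged 1529 ± 95.6 normalised reads with MI-503 and 1194 ± 29.2 with DMSO in MOLM13, and on the deposited scale its change was -0.18. As deposited, 8 of these 11 genes were called lower and the others did not pass. NAB1 and NAB2 fell (-0.19 and -0.54) while EGR1 rose. Kinases of the cascade were called in 7 cases higher and 5 lower of 18, and SRF, CREB and ETS factors in 4 higher and 2 lower of 11. Of all tested genes in MOLM13 59.9% were called, 29.9% in each direction. As deposited, where 76.7% of all genes were lower, 2 kinases were higher and 15 lower, and 9 of the 11 factors were lower. In OCI-AML3, 13 of 31 other immediate early genes rose and 13 fell, 6 of 13 ERK outputs rose and 4 fell, and 7 of 11 SRF, CREB and ETS factors fell, where 65.6% of all genes were called. As deposited, where 10.7% were, 2 other immediate early genes were higher and 5 lower, 1 ERK output was higher, and 1 of the factors was lower.

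For the interaction in MV411, 20 of 29 other immediate early genes lay above the sum and 3 below, led by ATF3 (2.93 ± 0.257), PHLDA1 (2.68 ± 0.244), SGK1 (2.56 ± 0.332) and ZFP36L1 (2.39). Of 10 ERK outputs 8 lay above, with DUSP5 at 2.94 and DUSP6 at 2.47. Of all genes 20.9% were called above the sum and 21.6% below. For MV411 minus MOLM13, 18 of 29 other immediate early genes were lower and 3 higher, with PHLDA1 at -3.07 ± 0.187 and KLF2 at -2.38 ± 0.476. Of all genes 30.6% were lower and 26.3% higher. As deposited, 12 of the 29 were lower and 11 higher, against 8.08% of all genes lower and 69.5% higher. Of 8 ERK outputs 7 were lower, and 6 on the deposited scale.

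**Figure D5:**
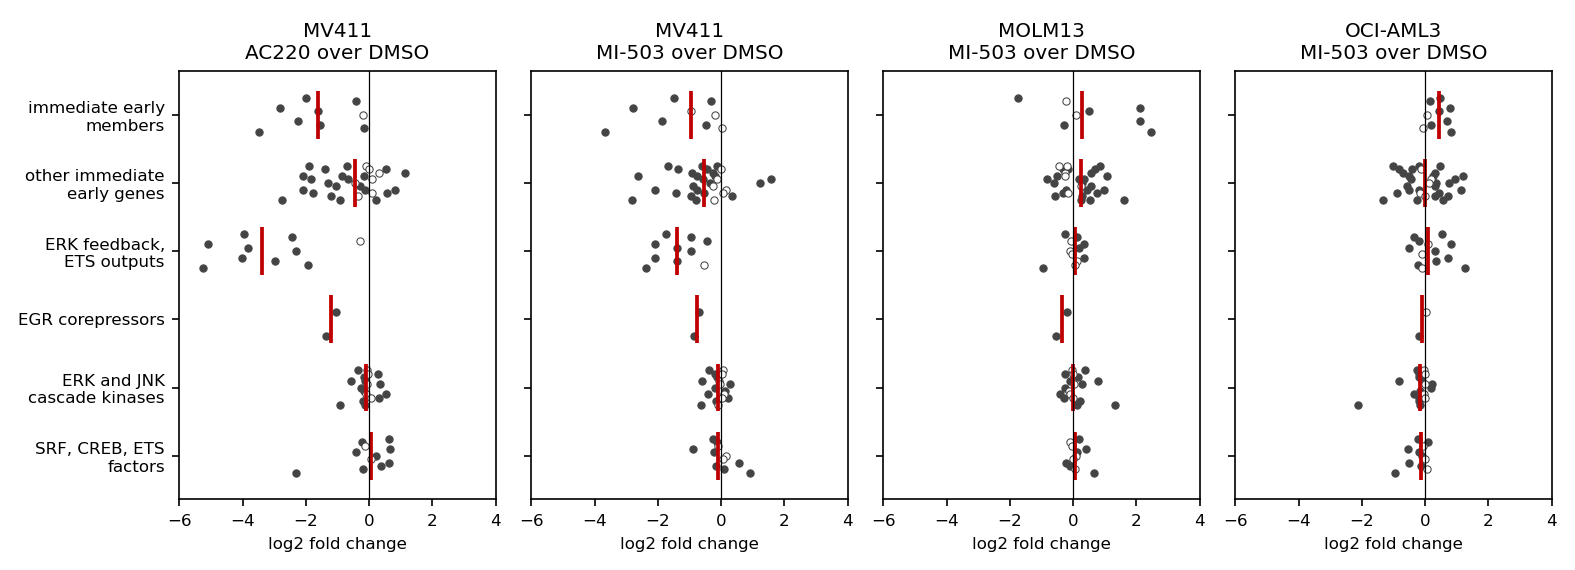
Log2 fold change over DMSO of each tested gene of 6 lists, for AC220 in MV411 and for MI-503 in MV411, MOLM13 and OCI-AML3, on the median-ratio scale. Points are genes (filled where the test was passed), spread vertically for sight alone, and red lines are list medians. ERK feedback genes and ETS outputs have medians of -3.39 with AC220 and -1.39 with MI-503 in MV411, and 0.07 in MOLM13. On the deposited scale of MOLM13, 8 of the 11 were called lower, as were 76.7% of all genes.

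The genes most like EGR1 over the 24 libraries, each library set against the DMSO mean of its own line, were C6orf223 (Pearson r 0.970), VASP (0.970) and INSIG1 (0.969) among 12072 candidates with a group mean of at least 100. Those most like FOS were TMC8 (0.936), STAG3 (0.935) and HEBP2 (0.935), and those most like JUN were SLC9A3R1 (0.969), ELL2 (0.962) and CECR6 (0.959). The libraries share lines and treatments, so r is a description over 8 groups rather than 24 independent points. C6orf223 fell by 4.19 with AC220 and by 3.37 with MI-503 in MV411 and rose by 2.64 with MI-503 in MOLM13. INSIG1, a brake on cholesterol synthesis, changed by -1.46 with AC220 and -1.16 with MI-503 in MV411 and by 1.36 with MI-503 in MOLM13. ELL2, an elongation factor, stood at -1.02 with AC220 in MV411 and at 1.68 with MI-503 in MOLM13, with 0.09 ± 0.0911 for MI-503 in MV411 (adjusted p = 0.433).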

How the data were processed

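RNA of 24 libraries was read from 3 deposited tables of 25680 genes. Per the labels, polyA RNA was sequenced as paired 50 bp reads, and spike-in RNA was added to a fixed number of cells. The labels number 3 libraries a group and do not say how the cultures were separated, so p-values measure the spread between these libraries, which may be technical. Per the submitters' processing notes, DESeq version 2 and build hg38 were used. Aligner, counter and annotation are not given in the sources used here, and spike-in reads were not analysed here. The tables are named as ERCC-normalised, but the deposited factors of MV411 equal median-of-ratios factors over genes and those of the other lines do not, so line differences on the deposited scale may mix 2 kinds of scaling. The deposited values are a signal, namely reads divided by 1 factor per library: 100% of values were whole multiples within 0.001, so reads were recovered.

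Values were divided by median-of-ratios factors within each table, which left MV411 as deposited and changed MOLM13 and OCI-AML3 libraries by 0.791 to 1.30. limma 3.58.1 (R 4.3.3) tested log2(value + 1) with a variance trend, two-sided, over genes at 10 or more in at least 3 libraries, with Benjamini-Hochberg adjustment over all tested genes calling adjusted p under 0.05. All 12 libraries of MV411 entered a single model. A line difference is the MI-503 effect of one line minus that of another, for genes that passed the filter in each. The procedure was tested on simulated data. Alternatives were the deposited scale, equal totals, TMM, other pseudocounts and filters, no trend, edgeR 4.0.16 and DESeq2 1.42.0 on recovered reads, a replicate block, only the 2 groups compared, and leaving out each library. RPM uses gene reads as total, and RPKM the exon union of GENCODE genes.

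Members and lists were chosen with earlier results of these data known. All 10 members are named, with up to 4 of the most changed passing genes of each list. The 3 genes most like EGR1, FOS and JUN are also named. SRF, ATF3 in MOLM13 and, for their levels, NAB2 and DUSP6 were added after values were seen. Genes near IER3 and single markers were also named after their values were seen. Replicate libraries differed beyond counting error (chi-square per degree of freedom 1.59 to 9.41 over 24 pairs).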

Additional observations from a re-analysis of the deposited data

Results flagged for a closer look

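Each of the following is a difference between lines in the MI-503 effect (log2). All except EGR3 are listed because they passed limma's test of the difference itself, after Benjamini-Hochberg adjustment. MV411 minus MOLM13 passed for EGR1 (-5.27), JUN (-2.60), FOS (-2.46), EGR3 (-1.93), FOSB (-1.65), FOSL1 (-1.22), IER2 (-0.48) and JUNB (-0.27). The set was proposed on the direction of EGR and FOS genes in these 2 lines, so passing here is no independent evidence. On the deposited scale IER2 (0.05) and JUNB (0.26) lay above 0 in this contrast. MV411 minus OCI-AML3 passed for EGR3 (-3.73), EGR1 (-3.49), FOSL1 (-2.32), FOSB (-1.82), EGR2 (-1.40), FOS (-1.13), JUNB (-0.65), JUN (-0.64) and IER2 (-0.17). MOLM13 minus OCI-AML3 passed for JUN (1.96), EGR1 (1.78), FOS (1.33), IER2 (0.31), JUNB (-0.38), FOSL1 (-1.11) and EGR3 (-1.81). Exposure was 3 days in MV411 and 4 days in the other 2 lines, so time and line cannot be told apart in the first 2 contrasts. EGR3 had differences of -1.93, -3.73 and -1.81 in the same order of contrasts, given with no test. In MV411 and MOLM13 it passed the filter on low values through DMSO libraries alone. A lower EGR3 value with MI-503 was thus favoured within each of these lines. In MV411 minus MOLM13 this enters both effects, so no direction of EGR3 is claimed there.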

How the results depend on the processing

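Over 96 member results and 12 alternatives other than leaving out a library, the deposited scale left 79 member results with the same direction and call, lost 10 calls, gained 1 and reversed 6. Counts here are over all tested members, EGR2 and EGR3 included. On it 4 members were lower in MOLM13, where 76.7% of all genes were lower (with a minimum value of 50 on the median-ratio scale, 1 member). In OCI-AML3 limma called 1676 genes in either direction and 0 members higher on it, with 3 members higher at an unadjusted p under 0.05. There edgeR and DESeq2, with factors of their own and not the deposited scale, called 7 members higher each. On the deposited scale 1 member was higher in MV411 minus MOLM13, where 69.5% of all genes were higher. There 2687 and 3222 genes were called for MV411 and MOLM13 minus OCI-AML3. Its reversals were JUNB -0.45 and IER2 -0.0345 in MOLM13, JUNB 0.26 and IER2 0.0494 in MV411 minus MOLM13, IER2 -0.0624 in MOLM13 minus OCI-AML3 and EGR3 -0.0849 in OCI-AML3. Equal library totals turned JUNB with the combination to -0.0096 and FOSB in OCI-AML3 to 0.0032, neither called. No variance trend lost 10 calls, DESeq2 6, edgeR 4, no filter 5, equal totals 5 and TMM 2, and fits to only the 2 groups compared gained 2 of 41 (JUNB with MI-503 and with AC220). A pseudocount of 0.5 gave 2 members lower for the combination against AC220. The cause was not tested.

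Leaving out 1 library gave 0 to 1 members higher for the combination against DMSO, 1 to 2 lower against MI-503, 1 to 2 lower against AC220 and 1 to 2 lower in MOLM13, where EGR3 left the filter without any 1 DMSO library. The additions were IER2 against DMSO without the second combination library, and EGR3 against MI-503 and AC220 without the third, and against AC220 without the first AC220 library. Values that changed sign ranged from -0.0099 to 0.0419 for IER2 with MI-503 in MV411, -0.1155 to 0.0888 for JUNB with the combination, -0.2006 to 0.2060 and -0.5207 to 0.0272 for FOSB in the combination against MI-503 and against AC220, -0.2846 to 0.1698 for FOSB in OCI-AML3 and -0.3882 to 0.0661 for FOSB in MOLM13 minus OCI-AML3.
The replicate numbers did not pair the libraries (correlation of deviations -0.0814 to 0.121 over 18 pairs in MV411, with 1 over 0.1, -0.00675 to 0.0697 in MOLM13 and -0.0497 to 0.0378 in OCI-AML3). With the number as a replicate block JUNB also fell with AC220 and passed for the combination against each drug. No other member call changed. edgeR and DESeq2 called 8 and 7 of the 9 tested members above the sum in the interaction, against 9 in the main fit. These 9 include EGR2 and EGR3, whose interaction is given with no test, and the share of all genes in those 2 fits is not given here. Few reads limit EGR2 and EGR3 in MV411 and MOLM13.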
